A study of Mus musculus with 8 samples.

Results

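Rab GTPases are small membrane switches, and the genes described here are the 59 mouse Rab genes and the 5 genes for Rab11 family-interacting proteins (Rab11fip1 to Rab11fip5), the adaptors that read out active Rab11. They were chosen by symbol alone among the 37620 genes of each table, which gave 64 genes. Of these, 8 belong to apical recycling, the route that returns cargo to the lumen-facing membrane of a polarised epithelium (Rab8a, Rab11a, Rab25 and the 5 effectors), and 56 do not. The study sequenced RNA of epithelial cells that had been flow-sorted from the mouse small intestine, in 2 groups of 4 libraries each, which the submitters call biological replicates. Cells positive for CD45, a leukocyte marker, or for the Ulex lectin were depleted from both groups. CD24Mid cells (replicates 1, 3, 5 and 7), which the submitters also call CD24low, were sorted for an intermediate level of the surface protein CD24, and CD24Neg cells (replicates 2, 4, 6 and 8) for its absence. The labels name no treatment and no strain, age, genotype or number of animals per library, so p-values measure the spread between these libraries.

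A Rab protein carries a lipid tail, binds a membrane when loaded with GTP and recruits effectors such as motors, tethers and adaptors. Exchange factors, many with a DENN domain, switch it on, and GTPase-activating proteins with a TBC domain switch it off. In the enterocyte, Rab11 and Rab8 together with the motor myosin Vb carry transporters and enzymes to the brush border, and loss of this route is known for microvillus inclusions and misplaced apical proteins.

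The labelled identities were checked against marker genes before the Rab genes were read. All 9 enterocyte markers passed the test higher in CD24Neg, with a summed level of 1300 to 1988 CPM (gene-unique reads scaled to the TMM-adjusted library size) in CD24Mid and 26802 to 45724 CPM in CD24Neg. All 8 crypt stem and dividing cell markers passed higher in CD24Mid, with sums of 3925 to 5402 against 219 to 561 CPM. Goblet cell markers were also high in CD24Neg, with sums of 12226 to 34480 CPM there and 3415 to 5303 CPM in CD24Mid. Of the 7 tested, 5 were called higher in CD24Neg and 2 were not called. B and plasma cell markers summed to 398 to 1018 CPM in CD24Mid and 24.4 to 55.2 CPM in CD24Neg, mostly from Igkc and Jchain, and 5 of the 7 tested were called higher in CD24Mid. The part of goblet cells or of B and plasma cells in the Rab results was not tested. Cd24a itself was at 155 to 255 CPM in CD24Mid and 19.2 to 38.5 CPM in CD24Neg. Libraries held 11340782 to 18928233 reads unique to 1 gene, of which mitochondrially encoded genes took 8.03% to 9.17% in CD24Mid and 27.7% to 37.0% in CD24Neg. Normalisation therefore matters: the TMM method, used throughout unless another is named, set the median gene at a log2 difference of 0.015 between groups, upper-quartile scaling at 0.24 and unscaled totals at 0.96. Both groups are sorted populations measured in bulk, so fewer cells of a type and less RNA per cell cannot be told apart.

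Promoter sequences are shown for 3 apical recycling genes on which the results below turn. Rab11fip3 was lower in CD24Mid and has 2 RefSeq start sites, and Rab25 and Rab11a are Rab11 relatives whose balance differed between the groups. Each is the 150 bases before a RefSeq start site in GRCm38.p6, given 5′ to 3′ on the gene's own strand, which is the minus strand for all 4, with motif matches on either strand in capitals. RefSeq held a promoter for 51 of the 64 genes. The motif list and the choice of sequences were made after expression values had been seen.
Rab11fip3 upstream start (chr17:26069519-26069668): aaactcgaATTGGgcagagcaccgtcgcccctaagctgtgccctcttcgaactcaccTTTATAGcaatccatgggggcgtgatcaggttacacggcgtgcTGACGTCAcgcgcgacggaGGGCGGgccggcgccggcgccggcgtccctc
Rab11fip3 downstream start (chr17:26021861-26022010): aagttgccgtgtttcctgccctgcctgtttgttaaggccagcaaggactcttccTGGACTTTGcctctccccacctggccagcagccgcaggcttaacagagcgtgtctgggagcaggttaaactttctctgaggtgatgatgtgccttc
Rab25 (chr3:88548280-88548429): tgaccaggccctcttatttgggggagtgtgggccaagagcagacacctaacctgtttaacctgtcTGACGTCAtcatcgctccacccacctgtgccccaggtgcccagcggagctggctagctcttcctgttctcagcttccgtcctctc
Rab11a (chr9:64737757-64737906): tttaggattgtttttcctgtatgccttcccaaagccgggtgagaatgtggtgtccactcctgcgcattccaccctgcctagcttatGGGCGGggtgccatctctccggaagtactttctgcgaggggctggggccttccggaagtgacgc
The 2 Rab11fip3 windows share no match. The upstream one holds 4 motif matches, a CCAAT box (CCAAT, here on the other strand), a CDX site (TTTATNG), a cyclic AMP response element (TGACGTCA) and a GC box (GGGCGG), and 19 CpG dinucleotides. The downstream one holds 3 CpG dinucleotides and 1 match, an HNF4 site (CAAAGTCCA, on the other strand), which 0.384% of all 32841 RefSeq windows of 250 bases carry. Rab25 also carries the cyclic AMP response element, which stood in 1.55% of all windows. Rab11a carries a GC box, present in 32.7% of all windows and in 44 of 65 windows of these genes (67.7%). The shares refer to the 250 bases before each start, of which the nearest 150 are printed. A match describes the letters in a window and does not show that a factor binds there.

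Of the 64 genes, 50 had enough reads to be tested. Of these, 33 were called higher in CD24Neg and 5 higher in CD24Mid at an edgeR quasi-likelihood adjusted p under 0.05, and 12 were not called. Among all 12840 genes tested, 34.3% were called higher in CD24Neg, 35.5% higher in CD24Mid and 69.8% in either direction. CPM values did not overlap between the groups for 35 of the 50 genes (70%), beside 64.4% of all genes. The calls lay mostly on the CD24Neg side under TMM. Their median log2 fold change, CD24Mid over CD24Neg, was -0.47, and 42 of 50 lay below the median gene. A scaling factor shifts all genes nearly alike, so it leaves that position as it is by construction, while the sign of small changes depends on it. With upper-quartile scaling 24 were called higher in CD24Neg and 6 higher in CD24Mid, and on unscaled totals 8 and 30. Reads of these 64 genes together made up 0.327% to 0.343% of non-mitochondrial reads in CD24Mid and 0.355% to 0.368% in CD24Neg.

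All 5 calls higher in CD24Mid (Rab3c, Rab15, Rab23, Rab11fip2 and Rab3d) and 8 of the 33 higher in CD24Neg (Rab11fip4, Rab30, Rab11fip3, Rab37, Rab20, Rab31, Rab24 and Rab17) were called in the same direction by 6 alternatives of scaling, test and counting. Of all genes, 4557 were called higher in CD24Mid and 4299 of them passed this filter, 33.5% of those tested. Of the 4410 called higher in CD24Neg, 1638 passed it, 12.8% of those tested. Of the 50 tested members, 5 and 8 passed.

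**Figure D1:**
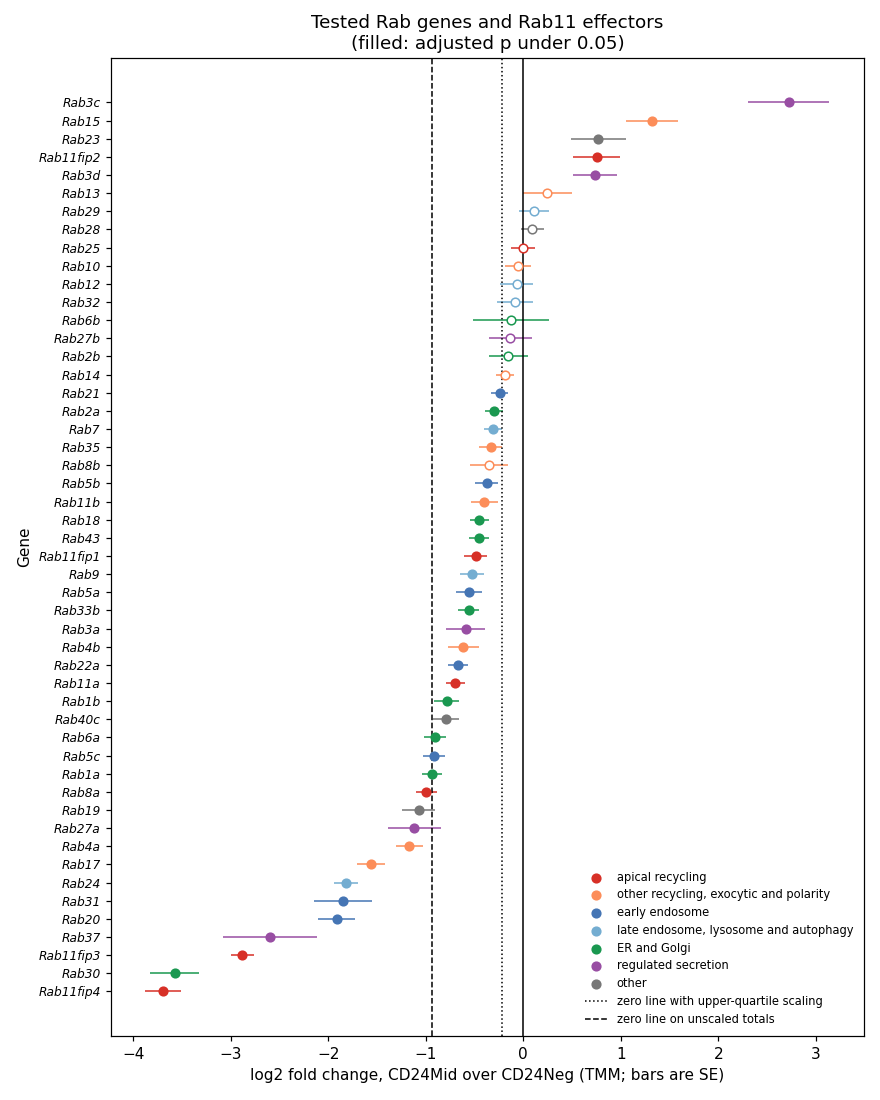
Log2 fold change (CD24Mid over CD24Neg, TMM, x axis) of the 50 tested genes, coloured by role, with bars of 1 standard error; filled points passed the test. The dotted and dashed lines mark where zero would lie under upper-quartile factors and for totals left unscaled; most genes higher in CD24Neg lie between the solid and dashed lines and change sign on unscaled totals, while 8 genes higher in CD24Neg and 5 higher in CD24Mid kept their call there.

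Within apical recycling, 7 of 8 genes were tested, with 5 called higher in CD24Neg, 1 higher in CD24Mid and 1 not called. Their median log2 fold change was -0.70, beside -0.45 over the 43 other tested members and 0.015 over all genes. The other members had 28 calls higher in CD24Neg, 4 higher in CD24Mid and 11 without a call. The difference between the 8 and the rest is described by these counts and was not tested.

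Rab11fip3, an adaptor that ties Rab11 vesicles to dynein and to the cleavage furrow, had the smallest adjusted p of the 8 genes. It was measured at 18.4, 18.2, 19.3 and 18.9 CPM in CD24Mid replicates 1, 3, 5 and 7, and at 124, 123, 163 and 140 CPM in CD24Neg replicates 2, 4, 6 and 8. The 4 CD24Mid libraries were nearly level, and the lowest CD24Neg library stood far above them. The log2 fold change was -2.88 with a standard error of 0.12 (edgeR adjusted p = 9.35e-08), 7.37-fold higher in CD24Neg. On unscaled totals it was -1.94.

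Rab11fip4, its closest relative, was at 1.60, 1.95, 1.34 and 1.21 CPM in CD24Mid and 19.8, 16.6, 21.8 and 20.5 CPM in CD24Neg. All CD24Neg libraries were again above all CD24Mid libraries, at a level far under that of Rab11fip3. The log2 fold change was -3.69 with a standard error of 0.18 (edgeR adjusted p = 1.34e-07), 12.9-fold higher in CD24Neg, and -2.75 on unscaled totals.

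Of the class I effectors, Rab11fip1 differed less, Rab11fip2 the other way, and Rab11fip5 had too few reads to be tested. Rab11fip1, also known as Rab coupling protein, was at 112, 121, 119 and 123 CPM in CD24Mid and 152, 184, 188 and 142 CPM in CD24Neg, with no overlap. Its log2 fold change was -0.49 (standard error 0.11, edgeR adjusted p = 0.0027), and it turned to 0.45 on unscaled totals. Rab11fip2, which also binds myosin Vb, was low in both groups, at 3.01, 3.63, 4.52 and 5.03 CPM in CD24Mid and 2.66, 1.85, 2.25 and 2.87 CPM in CD24Neg. The highest CD24Neg library came close to the lowest CD24Mid one, but the groups did not overlap. It was higher in CD24Mid, with a log2 fold change of 0.75 (standard error 0.24, edgeR adjusted p = 0.0164). The call was lost without CD24Mid replicate 7 (log2 fold change 0.63, adjusted p = 0.0546). Rab11fip5 was under the filter, with 38 reads over the 4 CD24Mid libraries and 8 over the 4 CD24Neg libraries. The ratio of CPM was 2.06, with a 95% interval of 0.945 to 5.10 that covers counting error only.

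**Figure D2:**
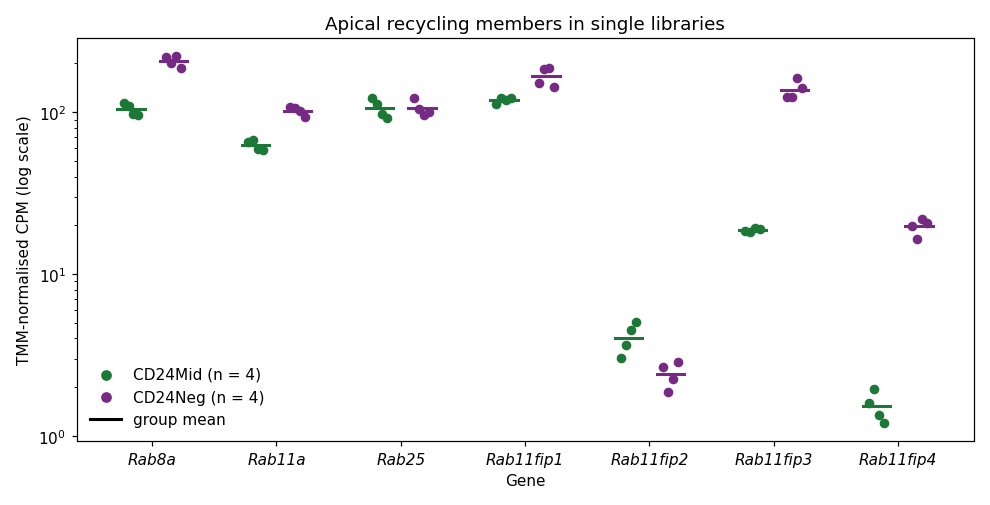
TMM-normalised CPM (log axis) of the 7 tested apical recycling genes in each library, with group means as bars. Rab11fip3 and Rab11fip4 stand 7.37-fold and 12.9-fold higher in CD24Neg, Rab25 is level between the groups on this scaling, and Rab11fip2 is higher in CD24Mid.

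Among the GTPases, Rab8a, which drives the last step of delivery to the apical membrane, was at 114, 109, 96.7 and 96.3 CPM in CD24Mid and 218, 201, 222 and 188 CPM in CD24Neg. Every CD24Neg library was well above every CD24Mid library. The log2 fold change was -0.99 (standard error 0.10, edgeR adjusted p = 9.27e-06), but -0.05 on unscaled totals (adjusted p = 0.613). Rab11a, the ubiquitous Rab of the recycling endosome, was at 65.7, 67.4, 59.5 and 58.3 CPM in CD24Mid and 108, 106, 101 and 92.6 CPM in CD24Neg. These too did not overlap, with a log2 fold change of -0.70 (standard error 0.10, edgeR adjusted p = 7.33e-05), which turned to 0.24 on unscaled totals. Rab25, the epithelial member of the Rab11 subfamily, was at 123, 112, 97.3 and 91.6 CPM in CD24Mid and 123, 104, 96.6 and 100.1 CPM in CD24Neg. Its groups overlapped fully. The log2 fold change was -0.0014 with a 95% interval of -0.27 to 0.27 (edgeR adjusted p = 0.993). With upper-quartile scaling it was 0.22 (adjusted p = 0.143) and on unscaled totals 0.94 (adjusted p = 1.75e-05).

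A ratio of 2 genes within 1 library does not depend on how libraries are scaled. For 21 pairs of related genes, log2 ratios of gene-unique reads were compared between the groups by an exact two-sided permutation test. In 12 pairs the groups did not overlap, each with exact permutation p = 0.0286, the smallest that 4 against 4 libraries can give. The CPM of single genes did not overlap for 64.4% of all genes tested. No such share was computed for pairs of other genes, so the 12 are not shown to be more than usual. Adjusted over the 21 pairs (Benjamini-Hochberg) each of these 12 stood at 0.05, so none was under 0.05.

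There were 1.87, 1.66, 1.64 and 1.57 reads of Rab25 per read of Rab11a in CD24Mid replicates 1, 3, 5 and 7. The corresponding CD24Neg ratios were 1.14, 0.989, 0.955 and 1.08. Every CD24Mid library was above every CD24Neg library, a log2 difference of 0.69 (exact permutation p = 0.0286, adjusted 0.05). Rab25 over Rab11b differed the same way by 0.40. Rab8a over Rab10, which serves exocytic and basolateral transport, lay between 0.684 and 1.05 in CD24Mid and between 1.44 and 2.06 in CD24Neg, a log2 difference of -0.95 (exact permutation p = 0.0286, adjusted 0.05). Rab8a over Rab13, a Rab of tight junctions, differed by -1.27, and Rab8a over its close relative Rab8b overlapped between groups (exact permutation p = 0.0857, adjusted 0.129). Rab11fip1 over Rab11fip2 differed by -1.20, and Rab11fip3 over Rab11fip4 by 0.82. A ratio alone does not show the direction of either gene. In the TMM fit Rab11fip3 and Rab11fip4 were 7.37-fold and 12.9-fold higher in CD24Neg. Rab4a over Rab4b differed by -0.56, and by -0.18 with overlap (exact permutation, adjusted p = 0.212) once shared reads were included. Most reads of Rab4b are shared with other genes, its estimated count being 4.48 times its unique count in CD24Mid and 5.78 times in CD24Neg, so its unique level is uncertain. For Rab11b this factor was 1.81 in both groups.

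**Figure D3:**
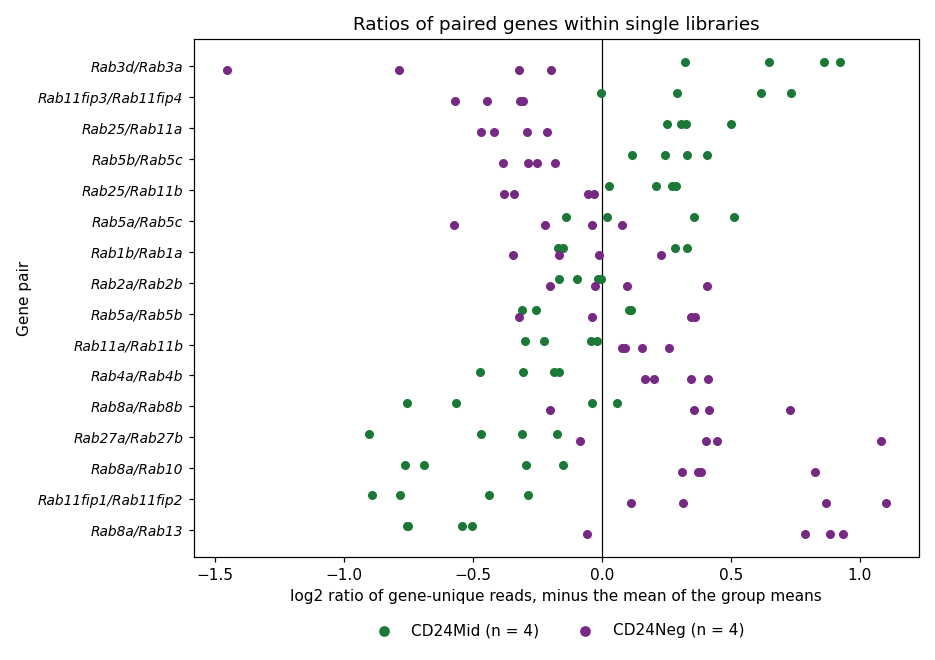
Log2 ratio of gene-unique reads of 2 related genes in each library (points, 4 per group), centred on the mean of the group means, for the 16 pairs in which both genes had at least 300 reads in all. Green and purple points separate for Rab3d over Rab3a, Rab25 over Rab11a and Rab8a over Rab10 among others, and intermingle for Rab1b over Rab1a and Rab5a over Rab5b.

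Levels can be compared between genes per kilobase of the deposited effective length. Of the reads per kilobase given to the 5 Rab11 effectors, Rab11fip1 held 80.4% ± 0.79 (SD, n = 4) in CD24Mid and 38.2% ± 4.0 in CD24Neg. Rab11fip3 held 15.2% ± 1.3 in CD24Mid and 56.0% ± 3.6 in CD24Neg. In the CD24Neg libraries Rab11fip3 held at least 52.3% and Rab11fip1 at most 42.6%. That order rests on the effective length, which for Rab11fip3 was itself shorter in CD24Neg (values given with the lengths of single libraries). By gene-unique reads alone Rab11fip1 stayed ahead of Rab11fip3 in CD24Neg, with 1202 against 976, 1591 against 1067, 2586 against 2250 and 1289 against 1270 reads in replicates 2, 4, 6 and 8. In CD24Mid the gap was far wider, with 2306 to 3051 reads of Rab11fip1 and 379 to 469 of Rab11fip3. Rab11fip4 held 0.874% in CD24Mid and 5.17% in CD24Neg, and Rab11fip2 3.07% and 0.641%, with no overlap for either. On the authors' expression estimate, which includes reads shared between genes, Rab11fip3 held 14.8% in CD24Mid and 54.2% in CD24Neg. Within the Rab11 subfamily, Rab25 held 53.0% ± 2.4 in CD24Mid and 39.4% ± 1.9 in CD24Neg, and Rab11a 32.1% ± 2.1 and 46.5% ± 0.66. By this measure Rab11a was ahead of Rab25 in CD24Neg, which again rests on a shorter length of Rab11a there. By reads Rab25 was ahead in CD24Neg replicates 2 and 8 (971 against 850 and 907 against 839) and Rab11a in replicates 4 and 6 (912 against 902 and 1392 against 1330). Rab11b held 14.9% and 14.0%, which overlapped. These shares were added after expression values had been seen and carry no test.

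**Figure D4:**
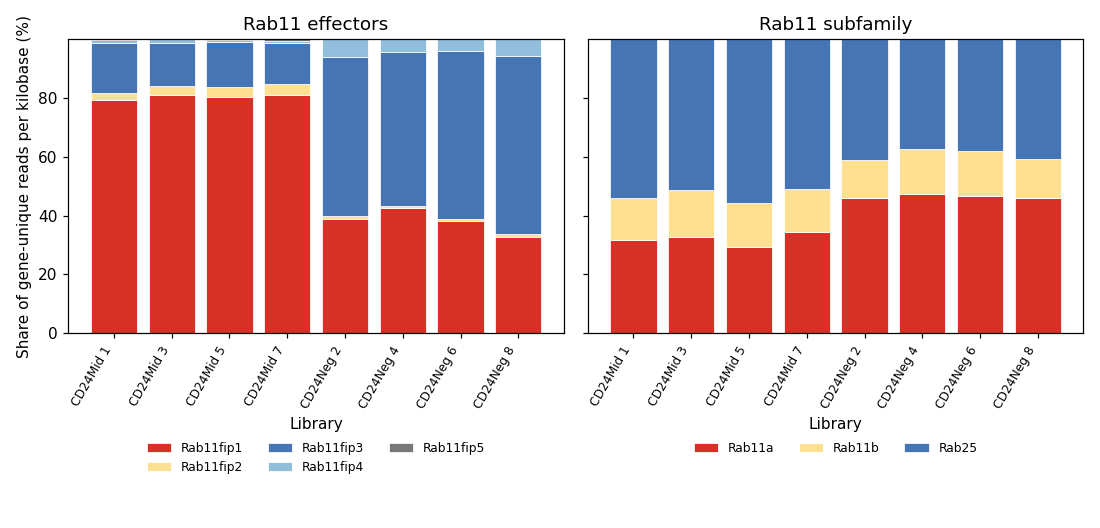
Share of gene-unique reads per kilobase of effective length (y axis, %) held by each Rab11 effector (left) and each Rab11 subfamily member (right) in the 8 libraries. Per kilobase, Rab11fip1 is the largest block in the CD24Mid libraries and Rab11fip3 in the CD24Neg libraries, and Rab11a is larger than Rab25 in CD24Neg, orders that rest on the length used and that reads alone do not give in every CD24Neg library.

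The effective length deposited for Rab11fip3 also differed. It was 3626, 4149, 3911 and 4073 bases in CD24Mid replicates 1, 3, 5 and 7 and 2770, 2783, 2772 and 2706 bases in CD24Neg replicates 2, 4, 6 and 8. The CD24Neg values lay within a narrow band below all CD24Mid values, a log2 ratio of 0.51. Of 7260 genes with at least 100 reads in every library, 0.702% differed by at least as much, and 9.28% had lengths that did not overlap. A later annotation (GENCODE M21, GRCm38) lists protein-coding transcripts of 5249 and 5383 bases that start close to the upstream RefSeq start and of 3271 bases from the downstream start, whose promoters are printed above. A further protein-coding transcript of 3333 bases begins at neither printed start. No label says how the length was computed, and which transcripts were present was not tested. Rab11a changed less, from 778 ± 91 bases (SD, n = 4) in CD24Mid to 648 ± 23 in CD24Neg without overlap, a difference that 3.36% of genes reached. Of the 34 members with that depth, 3 had lengths that did not overlap (8.82%), a share near the 9.28% of all genes. This readout was added after the data had been seen.

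**Figure D5:**
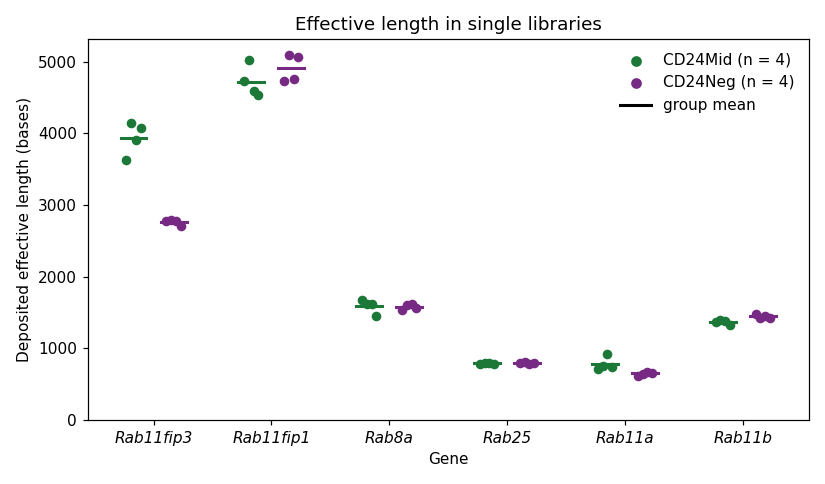
Deposited effective length in bases (y axis) of 6 genes in each library, with group means as bars. Rab11fip3 is shorter in all 4 CD24Neg libraries (2706 to 2783 bases) than in all CD24Mid libraries (3626 to 4149 bases), while Rab25 and Rab8a are level.

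The other recycling, exocytic and polarity Rabs gave 5 of 10 tested genes called higher in CD24Neg and 1 higher in CD24Mid. Among all genes tested these shares were 34.3% and 35.5%. Rab17, an epithelial Rab of apical sorting and transcytosis, was at 42.3, 35.1, 27.8 and 29.4 CPM in CD24Mid and 113, 92.9, 102 and 88.7 CPM in CD24Neg. The groups were far apart, with a log2 fold change of -1.56 (standard error 0.15, edgeR adjusted p = 4.00e-06). Rab4a, of the fast recycling route from early endosomes, was at 43.3, 39.9, 31.5 and 29.9 CPM in CD24Mid and 83.6, 82.5, 89.0 and 69.9 CPM in CD24Neg. Its log2 fold change was -1.17 (standard error 0.14, edgeR adjusted p = 2.29e-05), and -0.23 (adjusted p = 0.121) on unscaled totals. Rab15, an inhibitory Rab of early and recycling endosomes, ran the other way, at 30.3, 46.4, 36.9 and 36.9 CPM in CD24Mid and 16.7, 23.4, 8.35 and 12.5 CPM in CD24Neg. The CD24Neg libraries varied widely among themselves but stayed below CD24Mid, with a log2 fold change of 1.32 (standard error 0.26, edgeR adjusted p = 0.00103).

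Rab10, Rab14, Rab8b and Rab13 were tested and not called. Rab10 and Rab14, of exocytic and endosomal transport, were abundant, at 125 ± 15 and 113 ± 7.0 CPM (SD, n = 4) in CD24Mid against 129 ± 20 and 129 ± 8.6 CPM in CD24Neg. Their 95% intervals ran from -0.35 to 0.25 and from -0.40 to 0.02 on the log2 scale. Rab8b and Rab13 were scarcer, with log2 fold changes of -0.35 and 0.24 (edgeR adjusted p = 0.124 and 0.400). Rab13 was called higher in CD24Mid without CD24Neg replicate 4 (log2 fold change 0.55, edgeR adjusted p = 0.0444).

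All 7 early endosome Rabs were called higher in CD24Neg under TMM, beside 34.3% of all genes tested. On unscaled totals Rab5a, Rab5b, Rab5c, Rab21 and Rab22a turned positive (0.39, 0.57, 0.023, 0.70 and 0.27). Rab20 and Rab31 stayed negative there (-0.97 and -0.92). Rab5c, of the Rab5 family that governs early endosome fusion, was the third most abundant member per kilobase, at 83.4 ± 9.8 RPKM (CPM per kilobase of effective length) in CD24Mid and 156 ± 12 in CD24Neg (SD, n = 4). In CPM it was at 136, 139, 107 and 122 in CD24Mid and 252, 247, 239 and 214 in CD24Neg, without overlap. Its log2 fold change was -0.92 (standard error 0.11, edgeR adjusted p = 3.35e-05), and 0.02 on unscaled totals. Within its family Rab5c held 66.7% of reads per kilobase in CD24Mid and 73.1% in CD24Neg, and Rab5b 14.4% and 10.8%, neither overlapping. Rab20, an endosomal Rab of epithelia and macrophages, was at 4.90, 4.56, 3.18 and 3.42 CPM in CD24Mid and 18.6, 13.7, 14.9 and 13.2 CPM in CD24Neg. Rab20 thus changed by -1.91 on the log2 scale (standard error 0.19, edgeR adjusted p = 5.48e-06). Rab31, a Rab5 relative between Golgi and endosomes, was level in CD24Mid at 1.26, 1.21, 1.26 and 1.13 CPM and varied in CD24Neg at 2.79, 6.25, 5.30 and 3.09 CPM. No CD24Neg library reached down to CD24Mid, and the log2 fold change was -1.85 (standard error 0.29, edgeR adjusted p = 0.0002). CD24Neg replicates 4 and 6, high for Rab31, were also the 2 with the highest enterocyte marker sums (39914 and 45724 CPM), though Rab31 was higher in replicate 4. They also had the lowest mitochondrial shares of the CD24Neg libraries, 27.7% and 28.3% against 35.1% and 37.0% in replicates 2 and 8. Their T and NK lymphocyte marker sums were lowest too, at 30.8 and 85.5 CPM against 529 and 398. The part of any of these in the order of Rab31 was not tested.

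Of the 10 tested ER and Golgi Rabs, 8 were called higher in CD24Neg and none higher in CD24Mid with TMM. Among all genes tested these shares were 34.3% and 35.5%. On unscaled totals only Rab30 of these 8 stayed negative. Rab30, a Golgi Rab, went from 0.873, 1.02, 1.004 and 0.885 CPM in CD24Mid to 7.22, 14.1, 13.6 and 10.4 CPM in CD24Neg. It was nearly level in CD24Mid and more varied in CD24Neg, without overlap. Its log2 fold change was -3.58 (standard error 0.25, edgeR adjusted p = 5.36e-07), 11.9-fold higher in CD24Neg, and -2.64 on unscaled totals. Rab1a, of transport from the ER to the Golgi, was the most abundant member per kilobase, at 133 ± 6.3 in CD24Mid and 249 ± 22 in CD24Neg (RPKM, SD, n = 4). It was at 185, 180, 197 and 200 CPM in CD24Mid and 336, 367, 409 and 348 CPM in CD24Neg. This was a log2 fold change of -0.94 (standard error 0.11, edgeR adjusted p = 1.51e-05), and 0.0036 on unscaled totals. Rab1b, its near copy, had a log2 fold change of -0.79, which turned to 0.15 on unscaled totals. Rab2a, of traffic between Golgi and ER, changed by -0.30, with 113 ± 2.4 CPM in CD24Mid and 139 ± 9.6 in CD24Neg, and turned to 0.64 on unscaled totals. Its call was lost without CD24Neg replicate 4 or 6 (edgeR adjusted p = 0.0953 and 0.0647). Rab2b and Rab6b were not called (edgeR adjusted p = 0.502 and 0.778), with 3.03 ± 0.38 CPM (SD, n = 4) or less in either group.

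Of 6 tested Rabs of late endosomes, lysosomes and autophagy, 3 were called higher in CD24Neg, beside 34.3% of all genes tested. Rab7, the master Rab of late endosomes, was at 142, 142, 131 and 130 CPM in CD24Mid and 174, 166, 176 and 157 CPM in CD24Neg. The gap was small but without overlap, with a log2 fold change of -0.31 (standard error 0.092, edgeR adjusted p = 0.0114), which turned to 0.63 on unscaled totals. Rab24, an atypical Rab linked to autophagy, was at 34.5, 27.5, 26.1 and 24.7 CPM in CD24Mid and 94.9, 103, 93.0 and 107 CPM in CD24Neg. Its log2 fold change was -1.82 (standard error 0.12, edgeR adjusted p = 4.48e-07), and -0.88 on unscaled totals. Its exons overlap Prelid1 on the opposite strand in GENCODE M21, a later annotation than that of the counts. Prelid1 held 38058 reads in all and had a log2 fold change of -0.78 (edgeR adjusted p = 0.000499). The Rab24 estimate that includes shared reads was 0.996 of its gene-unique count in CD24Mid and 0.995 in CD24Neg. The strand setting and annotation of the counts are not stated, and whether reads of one gene were given to the other was not tested. The same limit holds for Rab2b, Rab3a and Rab6a, each of which overlaps a gene with 3002 to 6943 reads on the opposite strand. Rab12, Rab29 and Rab32 were not called, with log2 fold changes of -0.07, 0.11 and -0.09 (edgeR adjusted p = 0.738, 0.543 and 0.690). On counts that include shared reads Rab12 stood at 0.53 (edgeR adjusted p = 0.215), where its estimated count was 0.840 of the unique count in CD24Mid and 0.585 in CD24Neg, and its level is uncertain.

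Of 6 tested Rabs of regulated secretion, 2 (33.3%) were called higher in CD24Mid and 3 (50%) higher in CD24Neg. Among all genes tested the shares were 35.5% and 34.3%, so these few calls do not set the class apart. Rab3c, a Rab of secretory vesicles in neurons and endocrine cells, was at 1.94, 2.60, 3.47 and 2.45 CPM in CD24Mid and 0.253, 0.579, 0.145 and 0.662 CPM in CD24Neg. In CD24Neg it rested on few reads, since 3 reads come to between 0.218 and 0.380 CPM there. Its fitted log2 fold change was 2.72 (standard error 0.42, edgeR adjusted p = 0.000156). Of 14 enteroendocrine markers, 12 were also called higher in CD24Mid, their sum lying between 272 and 607 CPM there and between 78.3 and 108 CPM in CD24Neg, and CD24Mid replicates 1 and 5 were the lowest and the highest for both the markers and Rab3c. None of these markers was at 0 in all libraries. Their part in the Rab3c result was not tested. Rab3d, of exocrine secretory granules, was named because it is among the 5 calls higher in CD24Mid, after its values had been seen. It was at 42.4, 57.0, 40.1 and 39.3 CPM in CD24Mid and 36.5, 31.9, 16.6 and 23.4 CPM in CD24Neg, close to touching, with a log2 fold change of 0.73 (standard error 0.22, edgeR adjusted p = 0.0131). Against Rab3a within the same libraries it stood at 7.71 to 11.7 reads per read in CD24Mid against 2.25 to 5.37 in CD24Neg, a log2 difference of 1.38 (exact permutation p = 0.0286, adjusted 0.05).

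Rab37, a Rab of secretory granules, was at 1.16, 0.465, 0.418 and 0.684 CPM in CD24Mid and 6.71, 3.59, 1.45 and 5.08 CPM in CD24Neg. The lowest CD24Neg library, replicate 6, lay just above the highest CD24Mid library. This gave a log2 fold change of -2.60 (standard error 0.49, edgeR adjusted p = 0.000652). All 8 tested markers of T and NK lymphocytes were called higher in CD24Neg, with a sum of 6.83 to 18.8 CPM in CD24Mid and of 529, 30.8, 85.5 and 398 CPM in CD24Neg replicates 2, 4, 6 and 8. Mast cell markers summed to 37.4 to 61.4 CPM in CD24Mid and 5.23 to 13.0 CPM in CD24Neg, and the 3 of them that were tested were called higher in CD24Mid. The part of lymphocytes or mast cells in the Rab37 result was not tested. Without CD24Neg replicates 2 and 8 Rab37 stood at -1.83 (edgeR adjusted p = 0.0123). Rab27a, of lytic granules and other lysosome-related organelles, was at 6.84, 9.81, 7.82 and 8.45 CPM in CD24Mid and 22.0, 25.6, 9.59 and 14.8 CPM in CD24Neg. Here the groups overlapped, since CD24Neg replicate 6 was below CD24Mid replicate 3, and the log2 fold change was -1.12 (standard error 0.27, edgeR adjusted p = 0.00336). It was -1.06 (edgeR adjusted p = 0.0217) without CD24Neg replicates 2 and 8, and -0.18 (edgeR adjusted p = 0.564) on unscaled totals. Of 7 goblet cell markers, 5 were called higher in CD24Neg. The sum of all 7 stood at 27203, 34480, 12226 and 14929 CPM in CD24Neg replicates 2, 4, 6 and 8. Among these 4 libraries the order was that of Rab27a. It was also that of Rab15, which was called higher in CD24Mid. In CD24Mid replicates 1, 3, 5 and 7 the sum was 5303, 4976, 4256 and 3415 CPM, in another order than Rab27a. CD24Mid replicate 1 was highest for the markers and lowest for Rab27a. The part of goblet cells in the Rab27a result was not tested. Rab27b, the secretory partner of Rab27a, was not called, with 19.8 ± 4.4 CPM in CD24Mid and 21.8 ± 7.1 in CD24Neg (SD, n = 4). Without CD24Neg replicate 4, at 32.4 CPM the highest, its log2 fold change went from -0.13 to 0.17 (edgeR adjusted p = 0.434).

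Rab19, a little-studied Rab with epithelial expression, was at 10.3, 9.49, 9.37 and 10.5 CPM in CD24Mid and 19.6, 14.6, 23.1 and 25.9 CPM in CD24Neg. Its log2 fold change was -1.07 (standard error 0.17, edgeR adjusted p = 0.000176), and -0.13 (edgeR adjusted p = 0.475) on unscaled totals. Rab23, which restrains Hedgehog signalling and serves the primary cilium, was also named after its values had been seen, as one of the 5 calls higher in CD24Mid. It was scarce, at 3.78, 5.44, 4.89 and 3.62 CPM in CD24Mid and 2.41, 1.39, 3.27 and 3.20 CPM in CD24Neg, with a log2 fold change of 0.77 (standard error 0.28, edgeR adjusted p = 0.0284). The call was lost without CD24Mid replicate 3 or 5 (edgeR adjusted p = 0.0794 and 0.0666). Rab28, a ciliary Rab, was not called (22.5 ± 0.94 against 21.1 ± 2.9 CPM, SD, n = 4). A further 14 genes were called higher in CD24Neg with log2 fold changes between -0.91 and -0.24, and 11 of them did not overlap between the groups. The 13 other genes under the filter were Rab26, Rab33a, Rab34, Rab36, Rab38, Rab39, Rab39b, Rab3b, Rab40b, Rab42, Rab44, Rab7b and Rab9b, which were too low to test.

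RNA of genes for proteins that act on Rabs or in apical trafficking followed the same lean under TMM. Of 153 tested genes in 8 lists, 77 (50.3%) were called higher in CD24Neg and 21 (13.7%) higher in CD24Mid with TMM, against 34.3% and 35.5% of all genes, with a median log2 fold change of -0.34. On unscaled totals 20 were higher in CD24Neg and 107 higher in CD24Mid. In apical trafficking machinery 16 of 29 were higher in CD24Neg and 5 higher in CD24Mid. Anxa2, an annexin of apical and endosomal membranes, and Ehd1, an ATPase of recycling tubules, had log2 fold changes of -2.15 and -1.98 (edgeR adjusted p = 7.21e-07 and 1.08e-06). Exoc4, a subunit of the exocyst tether, and the synaptotagmin-like Sytl4 were higher in CD24Mid, by 1.01 and 1.07 (edgeR adjusted p = 1.33e-05 and 0.00349). Myo5b, the myosin Vb motor that Rab11 and Rab8 recruit, was singled out after its value had been seen, at 153 ± 13 CPM in CD24Mid and 493 ± 92 in CD24Neg (SD, n = 4), a log2 fold change of -1.69 and of -0.75 on unscaled totals.

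Of 14 tested effectors, tethers and exchange factors of Rab7, 8 were called higher in CD24Neg and 1 higher in CD24Mid. Rilp, which links Rab7 to dynein, and Mon1a, part of the Rab7 exchange factor, changed by -2.41 and -2.23 (edgeR adjusted p = 8.80e-07 and 2.39e-07), and Fyco1, a link to kinesin, by 0.33 (adjusted p = 0.0283). Of 17 for Rab5 and Rab4, 6 were higher in CD24Neg and none higher in CD24Mid, with Appl2 at -1.73 and Rabep2 at -1.68. Of 8 for Rab27 and Rab3, 5 were higher in CD24Neg and 1 higher in CD24Mid. Sytl3 and Sytl2, Rab27 effectors, changed by -4.56 and -1.57, and Rph3al, a granule effector, by 1.48 (edgeR adjusted p = 2.16e-06, 1.20e-05 and 2.53e-05). Sytl3 rested on 50 reads in CD24Mid and 526 in CD24Neg.

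The list of Rab GTPase-activating proteins had 18 of 38 called higher in CD24Neg and 9 higher in CD24Mid. It holds TBC domain proteins and, without that domain, the Rab3 GAP subunits Rab3gap1 and Rab3gap2, both among those higher in CD24Neg (-0.34 and -0.95, edgeR adjusted p = 0.00489 and 1.71e-05). Tbc1d24 and Tbc1d10c changed by -1.99 and -2.06, the latter on 72 reads in CD24Mid and 121 in CD24Neg, with 3.42 ± 3.2 CPM (SD, n = 4) in CD24Neg. Tbc1d19 and Tbc1d4, a regulator of glucose transporter traffic, changed by 3.49 and 2.40 (edgeR adjusted p = 3.44e-05 and 5.48e-07). Tbc1d19 rested on 273 reads in CD24Mid and 10 in CD24Neg. DENN domain exchange factors had 8 of 18 higher in CD24Neg and 3 higher in CD24Mid. Dennd3 and Dennd1b changed by -2.55 and -1.62, and Dennd2c and Dennd5a by 3.42 and 1.32. Dennd2c rested on 131 reads in CD24Mid and 5 in CD24Neg, where its mean of 0.130 CPM lay under the level of 3 reads. Dennd5a had 214 reads in CD24Mid and 35 in CD24Neg, with 0.97 ± 0.76 CPM (SD, n = 4) in CD24Neg. Golgi effectors and TRAPP subunits had 11 of 20 higher in CD24Neg and 2 higher in CD24Mid. Uso1, the tether p115, and Golga2, the matrix protein GM130, changed by -1.12 and -0.78, and Bicd1 and Ocrl by 1.47 and 0.77. Of 9 genes for prenylation and recycling, 5 were higher in CD24Neg and none higher in CD24Mid, with Rabggta at -0.69. The remaining 4 of that list were not called.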

How the data were processed

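RNA from 8 sorted samples was sequenced, and each sample has 1 gene-level table whose columns are named as MMSEQ names them. Reads were aligned with Bowtie 0.12.8 to NCBIM37, per the submitters' processing notes; the annotation release, strand setting and filters are not stated in the sources used here. The deposited tables give a raw count of fragments unique to each gene, a natural log expression estimate that includes shared reads (its scale was read from the values), and an effective length in bases. Groups came from the sample labels. The main test was the robust quasi-likelihood F test of edgeR 4.0.16 (R 4.3.3) on TMM-scaled counts of the 12840 genes that filterByExpr kept, with p-values adjusted by Benjamini-Hochberg over these and a gene called under 0.05; the standard error is the log2 fold change over the root of F. Estimated counts were rounded. CPM used TMM factors of 1.34 to 1.42 in CD24Mid and 0.697 to 0.757 in CD24Neg. A count of 3 comes to 0.121 to 0.380 CPM. Within-library ratios added 0.5 to each count in the means and tests, and exact tests used SciPy 1.17.1. Names were found for 32897 of 37620 gene IDs. DESeq2 1.42.0, other scalings, no filter, shared reads and each library left out were alternatives, and leaving out CD24Neg replicates 2 and 8 together was added after seeing the data. The tests were tried on simulated counts. In the edgeR simulation few genes were changed, in either direction, so it does not bear on the choice of scaling.

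All apical recycling genes are named, and of the others those called with a log2 fold change of at least 1 either way, the 5 with the most reads per kilobase, those tested and not called, and those untested by name; of each machinery list, the 2 largest calls each way. One gene of these lists is not reported here. Gene groups, pairs and lists were chosen with earlier results of these data known, so no list gets a test of its own.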

Additional observations from a re-analysis of the deposited data

Results flagged for a closer look

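Among 100 groups of 4 CPM values (50 tested genes in 2 groups), 2 held a library far from the other 3 by Dixon's ratio of gap to range, where chance alone marks about 1 in 20 groups. Rab21, an endosomal Rab, was at 44.2 CPM in CD24Neg replicate 6 and between 40.0 and 40.4 CPM in the other CD24Neg libraries. Rab27b, of secretory granules, was at 32.4 CPM in CD24Neg replicate 4 and between 17.6 and 19.3 CPM in the others. Of the CD24Neg libraries, replicate 4 also had the highest goblet (34480 CPM) and Paneth cell (277 CPM) marker sums. Its enteroendocrine (108 CPM) and B and plasma cell (55.2 CPM) marker sums were the highest of that group too. The part of any of these was not tested.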

How the results depend on the processing

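Scaling was the choice that moved most. On unscaled totals 30 genes were called higher in CD24Mid and 8 higher in CD24Neg (apical recycling 4 and 2, other members 26 and 6, machinery lists 107 and 20), and the median log2 fold change turned to 0.24 in apical recycling and 0.49 in the others. Upper-quartile scaling gave medians of -0.48 and -0.23 and 33 machinery genes higher in CD24Mid, and no filter on low counts gave medians of -0.50 and -0.24. On unscaled totals the log2 fold change changed sign for Rab10 0.89, Rab11a 0.24, Rab11b 0.54, Rab11fip1 0.45, Rab12 0.88, Rab14 0.75, Rab18 0.49, Rab1a 0.0036, Rab1b 0.15, Rab21 0.70, Rab22a 0.27, Rab25 0.94, Rab27b 0.80, Rab2a 0.64, Rab2b 0.79, Rab32 0.86, Rab33b 0.38, Rab35 0.61, Rab3a 0.35, Rab40c 0.15, Rab43 0.48, Rab4b 0.33, Rab5a 0.39, Rab5b 0.57, Rab5c 0.023, Rab6a 0.038, Rab6b 0.81, Rab7 0.63, Rab8b 0.60 and Rab9 0.41. With upper-quartile scaling it changed sign for Rab10 0.17, Rab12 0.16, Rab14 0.034, Rab25 0.22, Rab27b 0.091, Rab2b 0.071, Rab32 0.14 and Rab6b 0.093, with no filter for Rab10 0.047, Rab12 0.031, Rab25 0.10 and Rab32 0.012, on counts with shared reads for Rab12 0.53 and Rab25 0.0081 and with mitochondrial genes left out for Rab25 0.029. With CD24Neg replicates 2 and 8 left out it changed sign for Rab13 -0.013, Rab25 0.090 and Rab6b 0.092, while 4 genes were called higher in CD24Mid and 30 higher in CD24Neg. Over the 8 fits that each left out 1 library, the sign changed for 6 uncalled genes, whose ranges were Rab10 (-0.11 to 0.10), Rab12 (-0.13 to 0.057), Rab25 (-0.081 to 0.11), Rab27b (-0.27 to 0.17), Rab32 (-0.15 to 0.075) and Rab6b (-0.36 to 0.11). The cause of these changes was not tested.

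Leaving out each library in turn gave 4 to 6 genes higher in CD24Mid and 28 to 33 higher in CD24Neg, 0 to 1 and 5 to 5 in apical recycling, 3 to 5 and 23 to 28 in the others, 17 to 22 and 66 to 74 in the machinery lists, medians of -0.73 to -0.63 and -0.46 to -0.35, and 12 to 13 separated pairs. The 0 came without CD24Mid replicate 7. Calls on Rab11b, Rab11fip2, Rab21, Rab23, Rab2a, Rab35, Rab3a and Rab5b were each lost without at least 1 library. The log2 difference of Rab3d/Rab3b, with 32 reads of Rab3b in all, turned to 0.99 with 5 added to each count and ranged from -0.89 to 0.032 with 1 library left out. RLE factors and DESeq2 kept the direction and call of all 50 genes. No paired analysis was made. The groups share no replicate number (odd in CD24Mid, even in CD24Neg) and no label ties a library of one group to one of the other. Whether libraries of consecutive numbers share animals or a sort is not stated, and all tests leave out such a block. Genes of a few reads, such as Rab3c in CD24Neg, are limited by depth.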
